A study of Mus musculus with 4 samples.

Results

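Mouse blastocyst wells with a trophectoderm-like marker profile were compared with wells of an inner-cell-mass-like profile, within each plate and each morpholino. Transcripts had been counted well by well, with a library source that the labels call single cell. The labels name both 10x Genomics and a TruSeq polyA protocol, and whether each well held 1 cell cannot be told from them. The embryos had received a morpholino, a synthetic antisense strand that keeps its target RNA from being translated or spliced. Odd wells of each plate came from embryos given a morpholino against NKX1-2, a homeobox transcription factor, and even wells from embryos given a control morpholino. The blastocyst stage had 2 plates of 96 wells, called replicate 1 and replicate 2, and 2 further plates held morula wells, which were not used here. Mouse strain, embryo age, the number of embryos and the amount injected were not given in the sources used here, and no label ties a well to an embryo.

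A well was kept when at least 2000 genes had a count, which left 177 of 192 blastocyst wells. Counts of each well were scaled to 10000, and the natural logarithm of the value plus 1 was taken. The score of a well was the mean of 5 trophectoderm markers (Krt8, Krt18, Lrp2, Dab2 and Gata3) minus the mean of 5 inner cell mass markers (Nanog, Sox2, Tdgf1, Spic and Fgf4). Wells were ranked by this score within each plate and morpholino and cut into 3 parts. The top part gave 57 trophectoderm-like (TE-like) wells and the bottom part 57 inner-cell-mass-like (ICM-like) wells, together 114 of the 384 wells of the series, and 63 wells lay between them. Counts were summed per plate, morpholino and part, which gave 4 TE-like and 4 ICM-like sums. Levels are in CPM, the count of a gene scaled to a common total, whose basis is given with the processing. The wells were chosen by the measured levels of these 10 score genes, so their values are a description and no result rests on them.

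The blastocyst is the stage at which the mouse embryo holds its first separate cell lineages. Trophectoderm is the outer, polarised epithelium that pumps fluid into the cavity and later forms the placenta, and the inner cell mass holds the precursors of the epiblast, which forms the embryo proper, and of the primitive endoderm, which forms the yolk sac. Outer cells have an apical domain that holds Hippo signalling off, so that YAP and TAZ enter the nucleus, bind TEAD factors and switch on Cdx2 and Gata3, while inner cells keep Sox2 and Nanog on and secrete Fgf4, which acts on FGF receptors of their neighbours.

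The TE-like sums held 405593 to 535408 counts and the ICM-like sums 369882 to 529124. All 96 barcodes were found in every plate, since they mark well positions, so a shared barcode is not a shared cell. The median count per well was 33022 ± 5399 (SD, n = 4 plate and morpholino blocks) in TE-like and 31192 ± 4278 in ICM-like wells, higher in TE-like wells in 4 of 4 blocks. An exact two-sided sign-flip permutation test over 4 blocks cannot pass 0.05, and the median count gave the smallest p it allows. Median detected genes were 5475 ± 428 against 5265 ± 298, higher in 3 of 4 blocks (exact permutation p = 0.25). Wells with Xist and no Y-linked counts made up 28 of 57 TE-like and 29 of 57 ICM-like wells, and 17 and 16 wells held counts of both kinds. These shares were uneven within replicate 1, with 4 of 14 TE-like against 9 of 14 ICM-like control wells and 14 of 15 against 12 of 15 NKX1-2 wells holding Xist alone. The part of depth and of sex in the results was not tested beyond the alternatives of the closing section. Markers of other cells that could be carried along were near 0. The summed level of 12 cumulus and granulosa markers was at most 7.91 CPM in any sum, that of 12 oocyte markers at most 26.3, that of 10 blood and immune markers at most 21.2 and that of 9 fibroblast and endothelial markers at most 29.7.

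The score ran from -1.04 to 1.47 over the kept wells with no gap at either cut. In control wells of replicate 1, the last TE-like well scored 0.523 and the next well 0.359, while the last ICM-like well scored -0.101 and the next -0.0749. In replicate 2 the control cuts fell between 0.319 and 0.289 and between -0.0868 and -0.0797. The NKX1-2 cuts fell between 0.743 and 0.719 and between 0.032 and 0.0448 in replicate 1, and between 0.323 and 0.308 and between 0.0099 and 0.016 in replicate 2. A well of score 0.7 was thus in the middle part among NKX1-2 wells of replicate 1 and TE-like in every other block. In all, 56 of 177 wells lay within 0.1 of a cut, 33 at the ICM-like and 23 at the TE-like one, so the parts are ranges of a continuous score and not separate cell types.

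**Figure D1:**
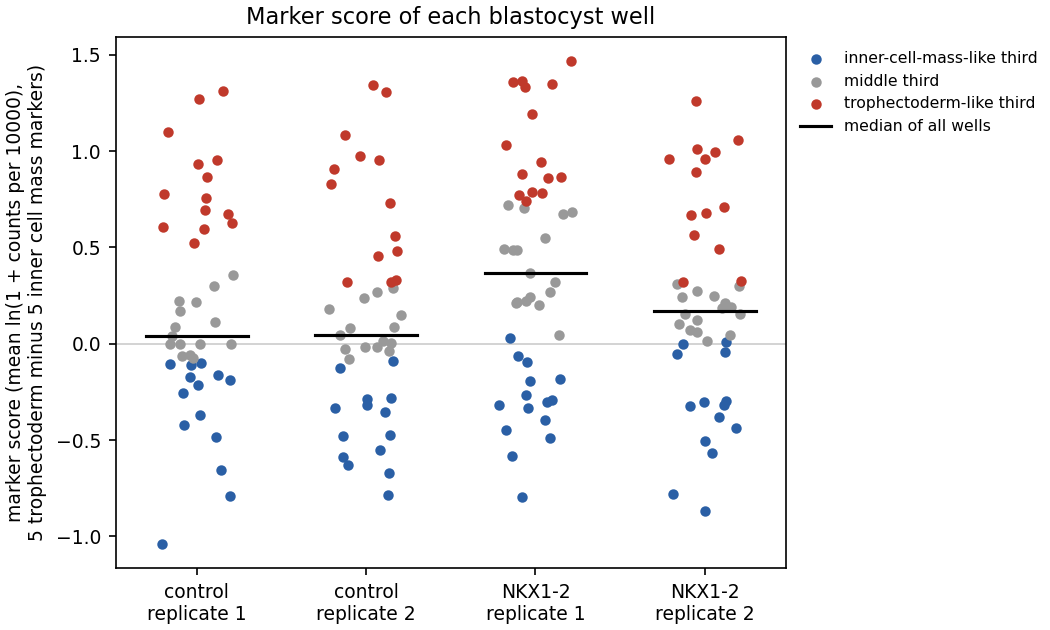
Marker score of each of the 177 kept blastocyst wells (vertical axis, difference of mean ln(1 + counts per 10000)) by morpholino and replicate. Each point is a well, coloured by its part, and the black bar is the median, which is 0.0392 and 0.0471 in control wells and 0.368 and 0.17 in NKX1-2 wells of replicates 1 and 2.

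Among the score genes, pooled over the 57 wells of a part, Krt18, a keratin of simple epithelia, stood at 275 CPM in TE-like and 27.4 in ICM-like wells, and Lrp2, the endocytic receptor megalin, at 312 and 33.4. Spic, an ETS factor, stood at 32.8 and 315 CPM, and Nanog, a homeobox factor of the epiblast, at 88.4 and 131. Sox2 and Fgf4 rested on 4 and 3 counts in TE-like and 31 and 35 counts in ICM-like wells. The marker sets were also read against each other, by cutting wells on 1 set of 5 markers and reading the other set. This describes partly other wells. All of these are score genes, so the values describe the score and no result rests on them. The cut on trophectoderm markers alone shared 51 TE-like and 42 ICM-like wells with the cut in use, and that on inner cell mass markers alone shared 32 and 46, with 3 wells in the opposite part. With wells cut by the trophectoderm markers, the 5 inner cell mass markers summed to 158 and 219.8 CPM in the high-scoring control sums and to 134 and 221 in the NKX1-2 sums, against 437, 553, 439 and 494 in the low-scoring ones. The mean was 183 ± 44.2 against 481 ± 54.8 CPM (SD, n = 4), 2.63-fold lower, and the groups did not overlap. Those of Spic (57.1 ± 8.99 against 285 ± 26.6 CPM), Sox2 (2.38 ± 2.84 against 12.95 ± 6.32) and Fgf4 (3.53 ± 3.40 against 17.3 ± 8.27) did not overlap either. The groups overlapped for Nanog, at 94.0 ± 26.5 against 109.9 ± 36.7 CPM, and for Tdgf1, at 26.1 ± 13.5 against 55.8 ± 20.6 CPM, where control replicate 2 went the other way (41.2 against 25.5 CPM). With wells cut by the inner cell mass markers, the trophectoderm markers summed to 795 ± 188 against 253 ± 49.4 CPM, a 3.15-fold difference with each of the 5 markers higher in 4 of 4 blocks.

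Over the whole transcriptome, TE-like and ICM-like wells differed in 211 of 4923 genes tested outside the score (4.29%) at an adjusted p under 0.05 (edgeR quasi-likelihood test, Benjamini-Hochberg adjustment over all genes). Of these, 127 were higher in TE-like wells (2.58% of genes tested) and 84 lower (1.71%), and the median size of the called differences was 1.03 on the log2 scale. The direction was the same in all 4 blocks for 125 of the 127 genes that were higher and for 77 of the 84 that were lower. The calls rest on these same blocks, so this describes the calls and is no further support. The 4 TE-like sums all lay above the 4 ICM-like sums for 96 of the 127, and all lay below them for 42 of the 84, where 3.62% and 2.54% of all genes tested did so. The wells between them had an intermediate mean level for 117 of the 127 and 71 of the 84. They are cut from the same score that chose both ends, so this is a description and no further support. The share over all genes tested was not counted. DESeq2 called 51 higher and 26 lower genes, all among those calls. Of the called genes named below, 45 had an adjusted p by DESeq2 and 36 of them passed. The other 9 were Klf2, Klf5's relative Klf6, Tfap2c, Atp1b1, Actn4, Wwtr1, Ctsc, Prdx6 and Dnajb14. Replicate 2 by itself gave 51 higher and 24 lower genes, replicate 1 by itself 14 and 11. All 14 higher calls of replicate 1 had the same direction in both blocks of replicate 2, and so did 5 of its 11 lower calls. Of the replicate 2 calls tested in both, 46 of 47 higher and 20 of 21 lower had the same direction in both blocks of replicate 1. Wells of both plates were cut by the same score, so this too is a description. How many of all genes tested share a direction in this way was not counted. Of the called genes named here, 41 of 51 did not pass without replicate 2 and 21 of 51 did not without replicate 1. With wells cut by the inner cell mass markers alone 19 of 51 did not pass, and some differences were far smaller on the log2 scale (Actb 0.03 in place of 0.47, Lrpap1 0.02 in place of 0.43, Epcam 0.21 in place of 0.80, Ly96 -0.45 in place of -1.50, Dnajb14 -0.28 in place of -1.43). These tests ask whether a gene goes with the marker score over wells of the same plates, and since no label says which wells share an embryo, their p-values measure the spread between sums, which may be technical.

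Several transcription factors of trophectoderm were higher in TE-like wells, and 1 was lower. Of 18 listed factors 7 were tested, 4 were higher in TE-like wells (Elf3, Klf5, Klf6 and Tfap2c), 1 was lower (Hand1) and 2 did not pass (Tead4 and Grhl2); their median difference was 0.81 on the log2 scale, against -0.01 over all genes tested. Elf3, an ETS factor of epithelia, stood at 363 and 397 CPM in the control and at 343 and 278 in the NKX1-2 TE-like sums, against 92.1 and 120.8, and 75.1 and 63.2, in the ICM-like sums. The groups were far apart (log2 fold change 1.99, SE 0.16, adjusted p = 7.94e-10 by edgeR). Klf5, a Krüppel-like factor needed for early trophectoderm in the mouse, was present in every one of the 114 wells and differed less, at 376 ± 55.4 against 235 ± 50.7 CPM (SD, n = 4; log2 fold change 0.69). Tfap2c, the AP-2 gamma factor of trophoblast, stood at 104, 101, 132 and 91.4 CPM in the TE-like sums, all above the 56.9 to 62.7 CPM of the ICM-like sums (log2 fold change 0.82, SE 0.21, adjusted p = 0.02 by edgeR). Tfap2c passed in 12 of 24 alternatives, and not with DESeq2. Klf6, of the same family as Klf5, was higher by 1.56 (SE 0.35), although its TE-like sum of the NKX1-2 wells of replicate 1 (30.6 CPM) lay below an ICM-like control sum (46.5 CPM). Tead4, the TEAD factor that starts the trophectoderm programme, lay at 94.9 ± 16.8 against 58.1 ± 20.2 CPM and did not pass (adjusted p = 0.09 by edgeR), though its sums did not overlap.

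Hand1, a basic helix-loop-helix factor known from trophoblast giant cells, was lower in TE-like wells. Its TE-like sums held 29.3 and 25.2 CPM in the control and 4.70 and 17.5 CPM in the NKX1-2 wells. The ICM-like sums held 208 and 58.1 CPM in the control and 84.2 and 155 CPM in the NKX1-2 wells, so the groups did not overlap. The log2 fold change was -2.66 (SE 0.31, adjusted p = 1.59e-06 by edgeR), and a count was found in 38 of 57 ICM-like wells against 19 of 57 TE-like wells. Cdx2, the homeobox factor that specifies trophectoderm, was below the count filter of the test. It had 42 counts in 27 of 57 TE-like wells and 1 count in 1 of 57 ICM-like wells, a 40.6-fold ratio with a 95% exact interval of 6.90 to 1641, which covers counting error only. Without the filter it passed (log2 fold change 4.77, adjusted p = 2.69e-06 by edgeR). Eomes and Elf5, later trophoblast factors, had 7 and 2 counts in TE-like against 6 and 0 in ICM-like wells, and no difference was detectable at this depth.

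A few genes of the epithelial surface were higher in TE-like wells. Epcam, an adhesion molecule of epithelia, stood at 389 ± 97.8 against 222 ± 57.3 CPM (log2 fold change 0.80), and the tight junction protein Cldn4 at 41.5 ± 15.0 against 10.4 ± 4.0 CPM (1.90), with no overlap of the sums for either. They were the 2 called genes of 8 tested in the list of keratins, desmosomes and tight junctions, where E-cadherin (Cdh1, 0.39), Tjp1 (0.07) and Cldn7 (0.23) did not pass. Krt7 had 12 counts against 4 and Krt19 0 against 3. Of 7 tested genes of ion and water transport into the cavity 1 passed, 5 lay below 0 and the median was -0.18. The gene that passed, Atp1b1, which encodes the beta subunit of the sodium pump, was higher (63.9 ± 19.1 against 22.4 ± 7.67 CPM; 1.51, SE 0.29). The water channel Aqp3 had a log2 fold change of -0.04 and did not pass. Rab17, a small GTPase of apical membrane traffic in epithelia, was higher by 2.76 (SE 0.49), at 45.4, 52.5, 28.2 and 27.2 CPM against 2.97, 4.65, 11.4 and 2.04 CPM. In the polarity list 1 of 6 tested genes passed, and it was lower. Ezr encodes ezrin, which links the apical membrane to actin. It stood at 36.7 ± 10.8 CPM in TE-like and 93.1 ± 19.1 CPM in ICM-like sums (log2 fold change -1.33, SE 0.24, adjusted p = 0.000481 by edgeR), with no overlap.

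Some actin genes and genes of the annexin and S100 families were higher in TE-like wells. In the list of actin and adhesion genes, 7 of 19 tested were higher and none was lower, where 2.58% of all genes tested were higher, and 18 of the 19 had a difference above 0 (median 0.36 on the log2 scale). Actb, cytoplasmic beta actin, was the most abundant of them, at 6238 and 4336 CPM in the control and 4801 and 4652 in the NKX1-2 TE-like sums against 4149, 4050, 3234 and 3056 in the ICM-like sums. The difference was small but without overlap (0.47, SE 0.09, adjusted p = 0.000667 by edgeR). Tmsb10, which binds actin monomers, was higher by 0.79 (SE 0.13). However, 23.5% of the 31-base stretches of Actb and 32.0% of those of Tmsb10 also occur in other genes, so their counts are uncertain. Also higher were tropomyosin Tpm1 by 0.93 (SE 0.19), the crosslinker Actn4 by 0.84 (SE 0.18) and the non-muscle myosin heavy chain Myh9 by 1.03 (SE 0.26). The myosin light chains Myl6 (0.53) and Myl12b (0.76) passed as well. Of 4 tested annexins and S100 proteins 3 were higher, 1 annexin and 2 S100 proteins, with a median of 1.89 for the list. Anxa2, which binds membranes and actin, stood at 205 and 185 CPM in the control and 136 and 183 in the NKX1-2 TE-like sums, against 26.7, 46.5, 20.5 and 20.4 CPM (2.64, SE 0.24, adjusted p = 4.15e-09 by edgeR). Its partner S100a10 had a narrow spread in TE-like sums, 82.0 ± 4.59 CPM against 22.7 ± 12.3 CPM (1.90). S100a11 stood at 202 ± 17.1 against 57.8 ± 26.4 CPM (1.87), but 48.9% of its 31-base stretches also occur in other genes, so its count is uncertain.

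**Figure D2:**
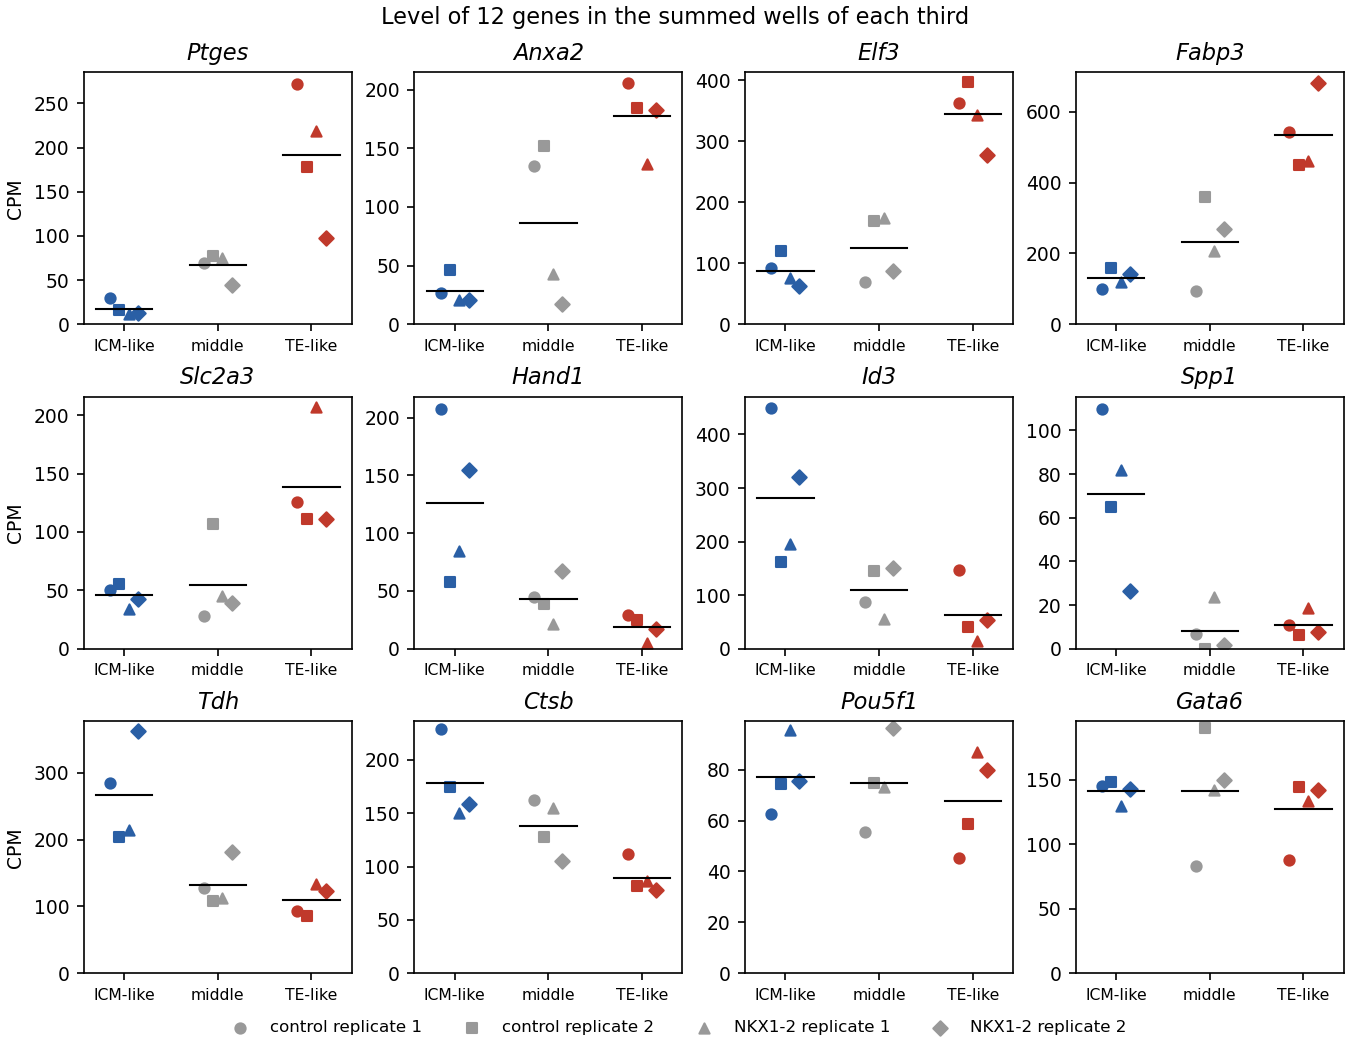
Level of 12 genes in CPM (vertical axes, linear, from 0) in the summed ICM-like, middle and TE-like wells, with 1 point per plate and morpholino and the mean as a bar. Ptges, Anxa2, Elf3, Fabp3 and Slc2a3 lie higher in the TE-like sums and Hand1, Id3, Spp1, Tdh and Ctsb lower without overlap, while Pou5f1 and Gata6 overlap.

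Signalling genes of several pathways differed, and the largest difference among the named genes that passed the count filter was that of Ptges, the synthase that makes prostaglandin E2. Its TE-like sums held 272 and 178 CPM in control and 219 and 97.3 CPM in NKX1-2 wells, against 29.7, 16.3, 11.4 and 12.2 CPM in the ICM-like sums. It was found in 55 of 57 TE-like and 20 of 57 ICM-like wells, and its log2 fold change was 3.45 (SE 0.26, adjusted p = 1.07e-10 by edgeR), the smallest adjusted p outside the score. Dusp4, a phosphatase that switches off ERK, followed at 37.4, 60.9, 40.0 and 37.0 CPM against 2.97, 9.30, 0 and 4.08 CPM (3.34, SE 0.49). It was the 1 called gene of 4 tested in the FGF-ERK list, where the receptor gene Fgfr2 had a difference of 1.65 (adjusted p = 0.0561 by edgeR). Trp53bp2, which encodes the p53-binding protein ASPP2, was higher by 3.05 (SE 0.43), at 55.5 ± 20.97 against 6.10 ± 5.67 CPM.

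In the Hippo list, 2 of 7 tested genes were higher and 1 was lower in TE-like wells. Vgll4 encodes a cofactor that competes with YAP for TEAD factors. It stood at 101 and 54.6 CPM in the control and 54.1 and 23.3 in the NKX1-2 TE-like sums against 23.8, 4.65, 11.4 and 4.08 CPM, higher in each block although the lowest TE-like value lay just under the highest ICM-like one (2.44, SE 0.37, adjusted p = 4.1e-05 by edgeR). Tead1, a TEAD factor, was higher by 1.78 (SE 0.44), at 41.3 ± 8.91 against 12.2 ± 9.33 CPM. Wwtr1, which encodes TAZ, was lower (-0.90, SE 0.24), at 47.5 ± 8.33 against 91.6 ± 37.0 CPM, and Yap1 (-0.45) and Amot (-0.19) did not pass. Wwtr1 passed in only 10 of 23 alternatives, and not with DESeq2. Promoter windows, 250 bases before to 50 bases after the RefSeq start site, were searched for the TEAD letters GGAATG on both strands. A gene counted when any of its windows held the letters. The mean number of windows was 1.29 for genes that were higher, 1.19 for those that were lower and 1.23 for tested genes. The letters were found in 25 of 100 matched genes that were higher (25.0%) and in 7 of 64 that were lower (10.9%). They were found in 13.04% of 3757 tested genes with a window and in 16.6% of all 27025 genes with one. The letters of the other motifs searched do not contain these letters. The AP-2 letters GCCNNNGGC were in 29.0% and 23.4% of the higher and lower sets against 26.7% of tested genes. The GATA letters AGATAA were in 5.0% and 9.38% against 7.29%, and the KLF letters GGGCGTG in 21% and 21.9% against 19.4%. The octamer ATGCAAAT and the SOX letters ACAATGG were each in windows of at most 3 genes of either set. A match is a description and not a bound site.

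Windows of several called genes hold a single TEAD match, those of Csta1 and Tpm1 among them. The windows of 3 genes that were higher in TE-like wells (Ptges, Elf3 and Vgll4) and of 1 that was lower (Id3) are shown as examples, each with such a match. They are from RefSeq, build GRCm38.p6, written 5′ to 3′ on the gene's strand, with the match in capitals. The matches begin at -151, -235, -82 and -203 from the start site in this order. The windows lie at chr2:30903248-30903547 on the minus strand, chr1:135258423-135258722 on the minus strand, chr6:114969154-114969453 on the minus strand and chr4:136143572-136143871 on the plus strand.
Ptges: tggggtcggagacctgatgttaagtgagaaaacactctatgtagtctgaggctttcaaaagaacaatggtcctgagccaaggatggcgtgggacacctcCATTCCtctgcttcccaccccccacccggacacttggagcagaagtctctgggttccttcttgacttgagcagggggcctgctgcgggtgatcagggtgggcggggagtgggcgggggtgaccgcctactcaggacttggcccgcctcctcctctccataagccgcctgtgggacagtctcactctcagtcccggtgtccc
Elf3: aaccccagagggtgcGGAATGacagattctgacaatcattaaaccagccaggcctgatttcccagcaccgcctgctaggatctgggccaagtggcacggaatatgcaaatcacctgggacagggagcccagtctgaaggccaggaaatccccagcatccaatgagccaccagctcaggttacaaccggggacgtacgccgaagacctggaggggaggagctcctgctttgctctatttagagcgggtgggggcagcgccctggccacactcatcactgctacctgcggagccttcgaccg
Vgll4: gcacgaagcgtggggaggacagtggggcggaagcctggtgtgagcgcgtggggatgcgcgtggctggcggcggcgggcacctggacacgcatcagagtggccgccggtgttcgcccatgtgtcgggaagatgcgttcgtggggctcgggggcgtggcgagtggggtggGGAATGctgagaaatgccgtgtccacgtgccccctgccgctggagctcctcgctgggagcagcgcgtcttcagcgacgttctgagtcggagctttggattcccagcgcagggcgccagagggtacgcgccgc
Id3: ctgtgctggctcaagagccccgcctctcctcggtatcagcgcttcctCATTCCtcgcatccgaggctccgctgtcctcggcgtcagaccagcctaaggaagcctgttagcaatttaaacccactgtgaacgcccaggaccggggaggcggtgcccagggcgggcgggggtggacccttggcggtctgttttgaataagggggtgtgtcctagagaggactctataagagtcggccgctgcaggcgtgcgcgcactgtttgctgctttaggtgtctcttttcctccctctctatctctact
The match lies on the shown strand in Elf3 and Vgll4 (GGAATG) and on the other strand in Ptges and Id3 (CATTCC), so the letters occur in a gene of either direction.

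Id3, an inhibitor of basic helix-loop-helix factors that BMP signalling induces, was lower in TE-like wells. Its TE-like sums held 147 and 39.9 CPM in control and 14.1 and 54.5 CPM in NKX1-2 wells, against 449, 163, 196 and 320.1 CPM in ICM-like sums. The groups did not overlap, although control replicate 1 was highest in both (log2 fold change -2.27, SE 0.23, adjusted p = 5.66e-07 by edgeR). The BMP receptor gene Bmpr1a, the other tested member of its list, had a difference of 0.33 that did not pass. Of the Wnt list, Ctnnb1 (0.05) and Gsk3b (0.54) were tested and neither passed by edgeR, DESeq2 or limma voom (1 had an unadjusted p under 0.05).

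Most pluripotency genes did not pass, and those that did were lower in TE-like wells. Of 18 tested genes of the epiblast and pluripotency list, none was higher, 2 were lower in TE-like wells (Tdh and Klf2) and 16 did not pass, with a median of -0.20 on the log2 scale. Over all genes tested, 2.58% were higher and 1.71% lower. Tdh, the threonine dehydrogenase of mouse embryonic stem cells, stood at 93.4, 86.1, 134 and 123 CPM in TE-like against 285, 205, 214 and 363 CPM in ICM-like sums, with no overlap (-1.27, SE 0.18, adjusted p = 1.38e-05 by edgeR). Klf2, a Krüppel-like factor of naive pluripotency, stood at 63.1 ± 21.6 against 123 ± 15.7 CPM (-0.97, SE 0.22). Klf2 passed in 17 of 24 alternatives, and not with DESeq2. Pou5f1, which encodes OCT4, had 45.4, 58.8, 87.0 and 79.8 CPM in TE-like and 62.4, 74.4, 95.6 and 75.4 CPM in ICM-like sums. These ranges overlap, and its difference of -0.18 (SE 0.22) did not pass (adjusted p = 0.804 by edgeR). Esrrb (-1.25, adjusted p = 0.0875 by edgeR) and Klf4 (-0.28) did not pass, Zfp42 lay at 0.44, and Dppa5a, at 2664 ± 377 against 2761 ± 258 CPM, was about level, with 57.2% of its stretches shared with other genes. Tet1, which oxidises 5-methylcytosine, was the 1 called gene of 5 in the DNA methylation list, lower at 43.8 ± 14.7 against 103 ± 26.2 CPM (-1.20, SE 0.24).

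The primitive endoderm markers that could be tested did not pass, and among the rarer ones named here Pdgfra had more counts in ICM-like wells. Of 21 listed genes 3 were tested, and none passed by edgeR, DESeq2 or limma voom or had an unadjusted p under 0.05. Gata6, the first factor of the lineage, stood at 127 ± 26.5 CPM in TE-like and 142 ± 8.34 CPM in ICM-like sums (-0.15, adjusted p = 0.807 by edgeR). Pdgfra, a receptor of the lineage, had 2 counts in TE-like and 21 in ICM-like wells, 10.9-fold more in the latter (95% exact interval 2.66 to 95.6, counting error only). It passed only without the count filter (adjusted p = 0.0476 by edgeR). Gata4 had 0 counts against 4 and Sox17 0 against 2, too few to show a difference, and Cubn, the receptor cubilin, had 14 against 15. The 21 listed genes summed to 471 to 640 CPM in TE-like and 587 to 647 CPM in ICM-like sums, which overlap. The score that cut the wells holds Lrp2 and Dab2. A score without them shared 49 of 57 TE-like and 53 of 57 ICM-like wells with the cut in use. How far these markers shape the primitive endoderm values was not tested. Spp1, the secreted phosphoprotein osteopontin, was lower in TE-like wells. It stood at 10.7, 6.30, 18.8 and 7.78 CPM in TE-like against 110, 65.1, 81.9 and 26.5 CPM in ICM-like sums, without overlap (-2.62, SE 0.35, adjusted p = 8.44e-06 by edgeR). In the wells between the 2 parts Spp1 stood at 8.08 ± 10.8 CPM, as low as in TE-like wells.

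Some sugar and lipid genes were higher in TE-like wells. In the glycolysis list 3 of 9 tested genes were higher and none lower, where 2.58% of all genes tested were higher. The glucose transporter Slc2a3 stood at 125, 111, 207 and 111 CPM in TE-like against 50.5, 55.8, 34.1 and 42.8 CPM in ICM-like sums (1.57, SE 0.24, adjusted p = 4.84e-05 by edgeR). Hexokinase Hk2 stood at 107 ± 21.8 against 42.4 ± 11.9 CPM (1.34), and enolase Eno1 at 117 ± 34.0 against 40.4 ± 17.99 CPM (1.49), with 28.5% of the 31-base stretches of Eno1 shared with other genes. Aldoa (0.33), Gapdh (0.45), Pkm (-0.24) and Ldha (0.44) did not pass. Fabp3, a carrier of fatty acids, stood at 544 and 449 CPM in control and 461 and 683 in NKX1-2 TE-like sums against 101, 158, 120.6 and 143 CPM in ICM-like sums. Its difference of 2.02 (SE 0.15, adjusted p = 1.61e-10 by edgeR) was without overlap, but 37.3% of its stretches are shared and the pseudogene Fabp3-ps1 was called with it (1.74), so reads may have been split. Lrpap1, the chaperone of megalin and related receptors, was higher by 0.43 (SE 0.11), and Apoa1, a lipid carrier, was level at 64.1 ± 46.2 against 64.4 ± 51.3 CPM. Pmvk, phosphomevalonate kinase, was the 1 called gene of 11 tested in cholesterol synthesis (1.35, SE 0.23), a list in which 7 genes lay below 0 and the median was -0.21.

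Of 30 genes of oxidative phosphorylation 1 passed, a share near the 2.58% of all genes that were higher. Cox5a, a cytochrome oxidase subunit, stood at 786 ± 36.8 against 528 ± 68.5 CPM (0.58, SE 0.12). None of 7 mitochondrially encoded transcripts passed by edgeR, DESeq2 or limma voom, and 0 had an unadjusted p under 0.05 (median -0.07). Of 15 tested genes of metallothioneins and glutathione defence, Prdx6, a peroxidase, was higher (0.46, SE 0.13) and passed in 13 of 24 alternatives. Gsta4, a glutathione transferase outside that list, was higher at 67.6 ± 22.8 against 13.9 ± 8.94 CPM (2.30, SE 0.33). In the lysosome list 2 of 19 tested genes passed, both lower in TE-like wells, where 1.71% of all genes tested were lower. The protease Ctsb stood at 112, 81.9, 87.0 and 77.8 CPM against 229, 174, 150.2 and 159 CPM (-0.99, SE 0.18, adjusted p = 0.000709 by edgeR), and Ctsc at 250.6 ± 53.9 against 350.0 ± 52.9 CPM (-0.49). Ctsc passed in 13 of 24 alternatives. The list as a whole was level, with a median of -0.00.

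No gene of the proliferation and stress lists passed by edgeR. None of 19 tested genes of DNA replication, 21 of mitosis, 14 p53 targets and apoptosis genes, 8 immediate early and heat shock genes and 9 genes of the amino acid stress response passed, with medians of -0.10, 0.12, -0.15, -0.02 and -0.21 on the log2 scale. At an unadjusted p under 0.05 there were 4, 6, 2, 0 and 2 of them, where 736 of all 4923 genes were under it. DESeq2 called none, and limma voom called 1, in the amino acid stress list. On simulated counts, the same test found 69% of 2-fold and 99% of 4-fold differences. The changed genes were drawn from all genes tested, so these shares are not those of the listed genes. Of 4 tested imprinted genes, with Xist among them (-0.10), and 2 early-embryo genes none passed by edgeR or DESeq2 (1 early-embryo gene did by limma voom), and the Y-linked Eif2s3y lay at 0.84 (adjusted p = 0.21 by edgeR).

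**Figure D3:**
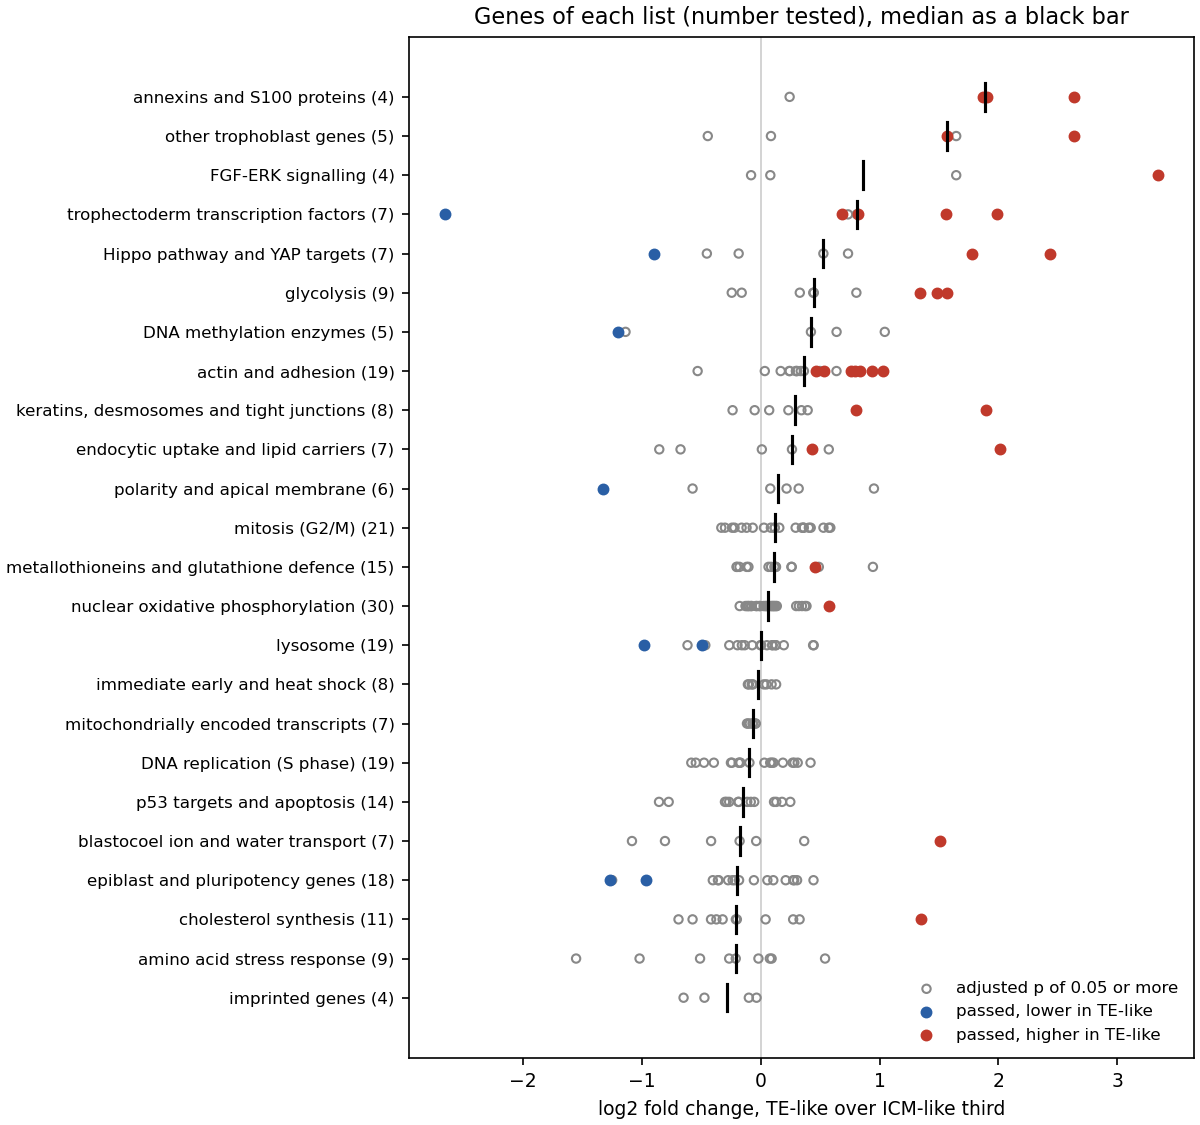
Log2 fold change of TE-like over ICM-like wells (horizontal axis) for every tested gene of the 24 lists with at least 4 tested genes, with the number tested in brackets and the median as a black bar. Filled points passed an adjusted p of 0.05, red higher and blue lower in TE-like wells. The annexin and S100 list has the highest median, 1.89, and Hand1 lies apart from the other trophectoderm factors at -2.66.

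Genes outside the lists completed the 12 largest differences in each direction. Higher in TE-like wells were Cryab, a small heat shock protein (62.3 ± 15.6 against 7.91 ± 5.54 CPM, log2 fold change 2.97), the protease inhibitors Serpinb9b (81.2 ± 27.4 against 10.4 ± 3.24 CPM, 2.92) and Csta1 (61.5 ± 30.2 against 11.4 ± 3.34 CPM, 2.35), and Bmyc, a relative of Myc (2.11). With wells cut by the trophectoderm markers alone, Cryab fell to 1.02 and did not pass. Bmyc had even levels within each group, at 248, 216, 219 and 235 CPM in TE-like against 50.5, 60.4, 31.9 and 69.3 CPM in ICM-like sums. However, 62.8% of its exonic bases overlap a gene on the other strand, and whether the counting used strand was not given in the sources used here. Lower in TE-like wells were Bex6 (27.0 ± 5.47 against 126 ± 86.1 CPM, -2.05), Bin1, a membrane-bending BAR domain protein (17.6 ± 10.3 against 59.5 ± 27.0 CPM, -1.77), Mgarp, a mitochondrial protein (23.1 ± 10.9 against 80.4 ± 35.1 CPM, -1.73), and Ly96, the co-receptor of Toll-like receptor 4 (14.7 ± 4.16 against 42.7 ± 7.29 CPM, -1.50). The control ICM-like sum of replicate 2 held only 23.2 CPM of Bex6, against 91.0 to 217 CPM in the other ICM-like sums. The same sum was lowest for Fbxo34, an F-box protein (23.2 against 71.4 to 116 CPM; -1.55; 27.9% of its stretches shared with other genes), and for Tmem56 (34.9 against 105 to 175 CPM; -1.51). Tat, tyrosine aminotransferase (-1.50), Ilrun (-1.48) and the co-chaperone Dnajb14 (-1.43) were below 50 CPM in both groups on average. They passed in 10 of 17, 11 of 16 and 8 of 16 of the alternatives that gave them an adjusted p. Fbxo34 was at -0.96 without replicate 1, Ilrun at -0.89 without replicate 2, Dnajb14 at -0.88 without the NKX1-2 wells of replicate 2 and Lrpap1 at 0.25 without replicate 1, and none of the 4 passed there.

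The wells between the 2 parts lay closer to the ICM-like mean for 72 of the 127 higher genes and closer to the TE-like mean for 55, on a log2(CPM + 1) scale. For the 84 lower genes they lay closer to the ICM-like mean for 38 and to the TE-like mean for 46. In a principal component analysis of all kept wells without the score genes, component 1 of replicate 1 (6.86% of the variance over 90 wells) correlated with the score at r = 0.46, and also with the number of detected genes at 0.48. It did not order the parts, with medians of 4.05 in TE-like, -2.18 in middle and -0.69 in ICM-like wells. In replicate 2, component 1 (6.22%) correlated with the score at 0.22, and component 4 (2.60% of the variance over 87 wells) correlated with the score at 0.70 and with detected genes at 0.25. These correlations are over wells that share a plate and are given without a test.

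The next question was whether the contrast between TE-like and ICM-like wells depended on the NKX1-2 morpholino. Nkx1-2 itself had 0 counts in all 177 wells, which allows up to 0.532 CPM over them, so its RNA does not check the labels. When 1 cut per plate replaced the cut within morpholinos, 19 of 47 NKX1-2 wells against 11 of 43 control wells fell in the top part in replicate 1, and 15 of 44 against 14 of 43 in replicate 2. The NKX1-2 share was higher in both plates, by little in replicate 2, and an exact two-sided test over 2 plates cannot go below 0.5. No gene had a contrast that differed between NKX1-2 and control wells at an adjusted p under 0.05 by edgeR (0%), and 153 of 4923 did at an unadjusted p under 0.05. DESeq2 and limma voom also gave 0 calls. The smallest adjusted p was 0.675. In simulated data this test recovered 14% of 2-fold and 60% of 4-fold differences, so moderate ones were not detectable.

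Ctsl, a lysosomal protease, had the smallest p of the named genes. Its TE-like sums held 1123 and 1121 CPM in control and 731 and 848 in NKX1-2 wells. The ICM-like sums held 1440.4 and 809 CPM in control and 1599.8 and 1502 in NKX1-2 wells. Its TE-like over ICM-like ratio was lower in NKX1-2 wells (log2 difference -1.03, SE 0.24) but did not pass (adjusted p = 0.675 by edgeR). Pmaip1, which encodes the pro-apoptotic NOXA, stood at 107 and 124 CPM in control and 37.6 and 37.0 in NKX1-2 TE-like sums, while its ICM-like sums lay at 107 and 65.1 against 105 and 77.5 CPM (-1.73, SE 0.47, adjusted p = 0.675 by edgeR). Tmx1, a redox protein of the endoplasmic reticulum, went the other way (2.50, SE 0.68), with 41.6 and 65.1 CPM in control against 11.4 and 16.3 in NKX1-2 ICM-like sums.

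Within TE-like wells, NKX1-2 and control differed in 1 gene (0.0203%; 325 at an unadjusted p under 0.05), Gm26917, a predicted gene. It was lower in NKX1-2 wells, at 667 and 651 CPM in control and 183 and 278 in NKX1-2 sums (-1.53, SE 0.25, adjusted p = 0.0275 by edgeR). It passed in 10 of 23 alternatives. Among genes that did not pass were X-linked Atp6ap2, an accessory protein of the proton pump (1.59, adjusted p = 0.0765 by edgeR), X-linked Tmsb4x, which binds actin monomers like Tmsb10 (4.10, from 2 counts in control and 43 in NKX1-2 sums, adjusted p = 0.0765), Cox8a (1.00) and Nup214, a nuclear pore protein (2.09, both adjusted p = 0.0848). Nup214 stood at 18.7 and 18.9 CPM in control against 65.8 and 95.3 in NKX1-2 TE-like sums. Wells with Xist alone were 4 and 3 of 14 control against 14 of 15 and 7 of 14 NKX1-2 TE-like wells, and among wells with Xist alone the difference of Atp6ap2 was 1.53 (adjusted p = 0.884 by edgeR).

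Within ICM-like wells, 4 genes passed (0.0811%; 303 at an unadjusted p under 0.05), 3 higher (0.0608%) and 1 lower (0.0203%) in NKX1-2 wells. Mt1, a zinc-binding metallothionein, stood at 1624 and 1378 CPM in control and 3263 and 3254 in NKX1-2 sums, with close replicates and no overlap (1.12, SE 0.15, adjusted p = 0.0067 by edgeR). In TE-like wells Mt1 stood at 1684 and 2369.7 against 3074 and 2722 CPM. Med21, a Mediator subunit, was lower, at 294 and 177 against 47.8 and 51.0 CPM (-2.20, SE 0.36, adjusted p = 0.0148 by edgeR). Its TE-like sums lay at 224 and 141 against 44.6 and 66.1 CPM (-1.67, adjusted p = 0.0848), and the difference between the 2 effects was 0.53 (SE 0.42), which did not pass. Romo1, a regulator of reactive oxygen in mitochondria, was higher (35.6 and 81.3 against 202.5 and 212 CPM; 1.85, SE 0.34). The noncoding gene 4930500L23Rik was higher too (2.96, SE 0.57, from 7 counts in control and 65 in NKX1-2 sums). Apoe, an apolipoprotein, stood at 104 and 121 against 36.4 and 22.4 CPM in ICM-like wells (-1.95, adjusted p = 0.0952 by edgeR) without passing. Mt1 passed in 18 of 23 alternatives, Med21 in 13 and Romo1 in 6, and 4930500L23Rik in 4 of the 18 that gave it a value, each with an unchanged direction. Leaving out 1 block removes its TE-like and its ICM-like sum, and those fits used a plate term shared by both parts. The number of calls changed in them, but they leave a lone sum in an arm and assume that it varies like the others. Wells with Xist alone were 9 and 3 of 14 control against 12 of 15 and 5 of 14 NKX1-2 ICM-like wells.

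**Figure D4:**
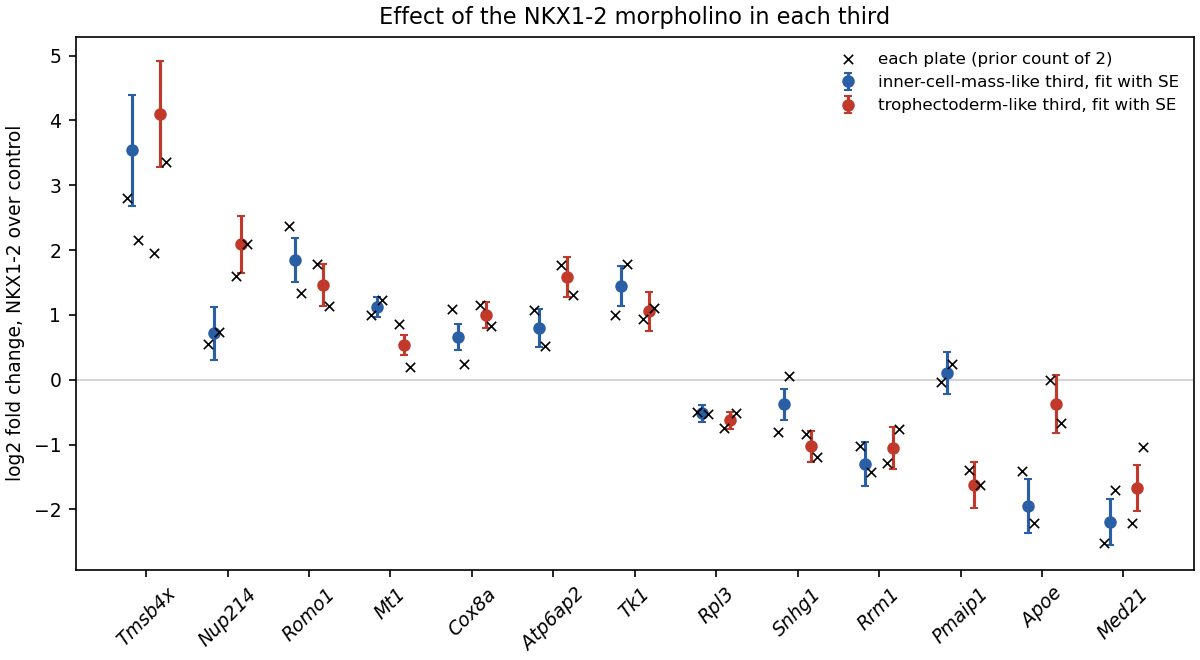
Log2 fold change of NKX1-2 over control (vertical axis) for 13 genes in ICM-like (blue) and TE-like (red) wells, as fitted values with standard errors, and the value of each plate as a cross, from CPM with a prior count of 2. Med21 lies at -2.20 and -1.67 and Mt1 at 1.12 in ICM-like wells, and no difference between the 2 effects of a gene passed.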

How the data were processed

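The deposited files hold whole-number counts per gene and well barcode, without normalization by the authors, beside a table that gives the morpholino of each barcode. Per the submitters' processing notes, TopHat2 was used, with GRCm38 or mm10 as the genome. How reads were assigned to genes, with or without strand, and whether a count is a read or a molecule was not given in the sources used here. No doublets were called.

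Counts were summed per plate, morpholino and part of the score. Genes were filtered with filterByExpr, normalised by TMM and tested with robust quasi-likelihood fits (edgeR 4.0.16, limma 3.58.1, R 4.3.3) of the 8 sums, with plate by morpholino as 4 blocks; the effect of the morpholino was fitted with the plate within each part. Score genes stayed in the fits (4931 genes) and out of the counts of calls. Levels of tested genes in TE-like and ICM-like sums are CPM over the genes tested, with TMM. Values of the middle part are CPM over the same genes without TMM. Values of score genes, pooled wells and summed marker lists are CPM over all genes without TMM. The blocks pair the sums by design, since both come from 1 plate and morpholino; deviations of paired sums correlated at 0.325, 0.189, 0.276 and 0.246. On simulated data with 200 changed genes among 4931, the 4 tests called 1, 4, 4 and 1 unchanged genes and none with the wrong sign. The morpholino tests recovered 26% and 15% of 2-fold changes in TE-like and ICM-like wells. Counts were drawn from the kind of model that the tests fit, so the shares hold for that model.

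Named genes were, in the main comparison, the 12 largest called differences per direction with the same sign in 4 blocks, at least 20 CPM and a gene name, up to 4 called members of each of 33 lists, and 21 preset lineage genes; in the other comparisons, 6 per direction, filled by smallest p, and 4 preset genes. Members, lists and rules were chosen with earlier results of these data known. Symbols were matched to GENCODE M21 for 54510 of 55453 genes, and promoters to RefSeq windows for 48 of 70 named genes. Alternatives covered DESeq2 1.42.0, limma voom, other scalings, filters, cuts and scores, and left-out plates and wells. Other values came from pandas 2.3.3, numpy 2.4.6 and scipy 1.17.1 under Python 3.11.15, and figures from matplotlib 3.10.9.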

Additional observations from a re-analysis of the deposited data

Results flagged for a closer look

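In 11 of 120 groups of 4 sums of a named gene, 1 sum lay farther from the rest than Dixon's 95% critical value allows, where chance flags about 5% of groups; no cause was tested. Among TE-like sums, the gap over the range was 0.875 for Dusp4 (control replicate 2, 60.9 CPM against 37.0 to 40.0 in the others), 0.8816 for Klf5 (control replicate 1, 459 against 343 to 357 CPM), 0.8715 for Ctsc (control replicate 1, 331 against 219 to 233 CPM) and 0.8487 for Slc2a3 (NKX1-2 replicate 1, 207 against 111 to 125 CPM). It was 0.8981 for Wwtr1 (NKX1-2 replicate 2, 35.02 against 50.7 to 52.5 CPM) and 0.8756 for Tead4 (NKX1-2 replicate 1, 119.8 against 83.7 to 88.2 CPM). Among ICM-like sums, the gap was 0.9129 for Bin1 (99.9 against 42.8 to 47.8 CPM), 0.9722 for Tmsb10 (351 against 258 to 261 CPM) and 0.8862 for Pmvk (74.4 against 31.9 to 36.7 CPM), each in control replicate 2. It was 0.9302 for Gsta4 (27.3 against 8.91 to 10.2 CPM) and 0.8297 for Ly96 (31.9 against 44.9 to 47.5 CPM), both in NKX1-2 replicate 1.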

How the results depend on the processing

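Of 52 called named genes, all kept their direction in every alternative run for them, and 8 passed in each (Ptges, Serpinb9b, Anxa2, Bmyc, Fabp3, Hand1, Spp1 and Elf3). Their calls and sizes did not all hold. Without replicate 2, 41 of 51 lost the call, while 1 gene fell by over 1.5 times. With inner cell mass markers alone, 19 of 51 lost the call and 23 fell by over 1.5 times. With wells thinned to 10000 counts, 9 of 26 lost the call. Actn4 fell there to 0.26, Hk2 to 0.77 and Cox5a to 0.33 on the log2 scale, and none of them passed. The counts moved more. For TE-like against ICM-like wells (211 calls, 127 higher and 84 lower), DESeq2 gave 77 (51 and 26), the fit with no replicate block 110 (81 and 29), wells thinned to 10000 counts 84 (46 and 38), a score of the 5 inner cell mass markers alone 133 (66 higher) and wells with Xist and no Y-linked counts 83 (43 and 40). Lower calls were 151 with no filter on low counts and 134 with a score without Lrp2 and Dab2. Leaving out a plate or a plate's wells of 1 morpholino gave 25 to 309 calls, 14 to 158 higher and 11 to 151 lower. The lowest were 25 without replicate 2 and 75 without replicate 1, and the others were 138 and 121 without the control or NKX1-2 wells of replicate 1, and 309 and 116 without those of replicate 2. Thinned wells and Xist wells tested fewer genes (2286 and 2820), while fits without a plate tested 5410 and 4842; causes were not tested further.

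The difference of the contrast between morpholinos had 1 call with no filter, 1 with the score cut into 2 parts and 1 without wells holding both Xist and Y-linked counts, an alternative added after seeing the data, and 0 to 9 with 1 block left out. NKX1-2 against control in TE-like wells had 19 calls with no filter, 8 with a plate term shared by both parts and 4 without Lrp2 and Dab2. It had 0 with limma voom, the filter on the mean, wells of 4000 genes, cuts into 2 or 4 parts, 1 cut per plate, scaled markers, trophectoderm markers alone, Xist wells, and without wells of both kinds; it had 3 to 95 with 1 block left out. In ICM-like wells there were 16 calls with no filter and 7 with the shared plate term. There were 2 with RLE size factors, the filter on the mean, no replicate block, wells of 4000 genes, thinned wells, 2 parts or without the highest well of each gene. There was 1 with DESeq2, limma voom, 1 cut per plate or trophectoderm markers alone. There were 0 with 4 parts, scaled markers, inner cell mass markers alone, Xist wells or without wells of both kinds, and 14 to 152 with 1 block left out. Dropping a whole plate leaves these effects without residual degrees of freedom, so those fits were not run.

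Among named genes, only differences that had not passed changed sign. Apoa1 went to -0.0434 with DESeq2, -0.0004 with no filter, -0.0071 with the filter on the mean, -0.0485 with 4 parts, -0.8768 with inner cell mass markers alone, -0.4642 without its highest well and -0.2071 without wells of both kinds, and ranged from -0.4044 to 0.5675 with 1 block or plate left out. Pou5f1 was 0.057 with 4 parts. Dppa5a was 0.0102 thinned, 0.0142 with 2 parts, 0.1931 in Xist wells and 0.0333 without wells of both kinds. Gata6 ranged from -0.2906 to 0.0014 with 1 block left out. In the difference between morpholinos, Med21 was -0.3562 thinned and -0.2333 with trophectoderm markers alone, and Tmsb4x was -0.5204 with 2 parts and -0.0237 with trophectoderm markers alone and ranged from -2.9139 to 1.4845 with 1 block left out. Depth limits the weaker factors: Cdx2, Eomes, Elf5, Gata4, Sox17 and Pdgfra fell under the count filter.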

Other observations

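Some of the called genes that the lists and the naming rule did not cover are given here, chosen after their values were seen. Sat1, the enzyme that acetylates polyamines for breakdown, was lower in TE-like wells with the smallest adjusted p of that direction. Its sums held 1177 and 661 CPM in control and 961 and 747 CPM in NKX1-2 TE-like wells, against 2278, 1338, 1850.1 and 1678 CPM in ICM-like wells (log2 fold change -1.02, SE 0.10, adjusted p = 9.9e-09 by edgeR), with no overlap. Bhmt, which methylates homocysteine with betaine, was lower as well, at 1310 ± 283 against 2093 ± 521 CPM (-0.67, SE 0.09). Ap2a2, a subunit of the clathrin adaptor that takes up receptors at the cell surface, was higher in TE-like wells at 290.4 ± 44.5 against 93.7 ± 15.3 CPM (1.63, SE 0.17), while the adaptor subunit Ap2m1 (0.26) did not pass. Akr1b8, an aldo-keto reductase, stood at 251.1 ± 43.5 against 77.5 ± 8.89 CPM (1.67, SE 0.18), and the actin-binding calponin Cnn3 at 362 ± 55.9 against 146 ± 15.1 CPM (1.29, SE 0.15).

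The ligand gene Pdgfa and its receptor gene Pdgfra lay on opposite sides. Pdgfa stood at 168 and 117 CPM in control and 113 and 142 CPM in NKX1-2 TE-like sums, against 68.3, 48.8, 38.7 and 40.8 CPM in ICM-like sums. The groups did not overlap (log2 fold change 1.47, SE 0.21, adjusted p = 2.34e-05 by edgeR), whereas Pdgfra had 21 of its 23 counts in these parts in ICM-like wells.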
